A study of Mus musculus with 4 samples.

Results

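Transcripts of 10 zinc-finger and nuclear-receptor response factors were followed in hematopoietic stem cells (HSCs) with and without *Id2*. The factors are *Klf2*, *Klf3*, *Klf4*, *Klf6* and *Klf10* of the KLF family, *Egr1* and *Egr3* of the EGR family, and *Nr4a1*, *Nr4a2* and *Nr4a3* of the NR4A family. They were picked by gene symbol, with earlier values of these same libraries known, and all 10 have a row among the 19354 genes of the table. Of these, 9 passed a filter that asked for a mean of 1 or more in counts-per-million (CPM), as did 15895 genes in all. *Egr3* did not pass and is given by its values alone. *Nr4a3* passed only through the libraries where it was high.

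HSCs were sorted as LSK FLT3- CD48- CD150+ cells from mice aged 8 to 16 weeks. Both groups carried *Mx1-Cre*, a Cre recombinase under an interferon-responsive promoter that is active in blood cells and in other tissues, and both groups received pIpC, a synthetic double-stranded RNA that induces interferon, 2 weeks before sorting. The controls were *Mx1-Cre*; *Id2*+/+ (14 mice), and *Mx1-Cre*; *Id2*Fl/Fl mice (15 mice) gave the *Id2*Δ/Δ cells. RNA of pooled HSCs from 2 experiments gave 2 libraries per genotype, lettered A and B. The labels do not say what a letter stands for, which experiment a library came from, or how many mice each library pooled. P-values therefore measure only the spread between these libraries, and fewer cells of a type cannot be told apart from less RNA per cell.

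KLF, EGR and NR4A genes encode DNA-binding transcription factors, many of which are transcribed within minutes of a signal without new protein synthesis and are called immediate-early or early response genes. KLF proteins bind CACCC and GC-rich sequences through zinc fingers, EGR proteins bind a GC-rich site through zinc fingers, and NR4A proteins are orphan nuclear receptors that bind as monomers, as dimers or with RXR partners. In blood, NR4A receptors and EGR1 have been linked to the quiescence and retention of HSCs, and KLF2 is known for holding lymphocytes in a resting state.

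The level unit is log2 CPM, quantile-normalized by the authors, with a median of 3.92 in every library. Depth, recovered from low values, was about 14200000 reads in *Id2*+/+ A, 15700000 in *Id2*+/+ B, 17800000 in *Id2*Δ/Δ A and 18800000 in *Id2*Δ/Δ B. The deleted gene *Id2* was read 93 and 98 times in *Id2*+/+ cells and 0 times in either *Id2*Δ/Δ library, which against the floor of 3 reads per library that a count of 0 allows is at least 39.0-fold lower. Floors and intervals on reads cover counting error only. Of 11 HSC markers, all 11 were present, with summed levels of 3992 to 5608 CPM per library. Of the markers of other cells, the defining lymphocyte genes *Ebf1*, *Pax5*, *Cd3e* and *Cd3d* had no row among the values used. The 2 B cell markers with a row summed to 33.6 to 51.0 CPM per library, and *Nkg7*, the only T and NK cell marker with one, was at 40.5 to 56.7 CPM. Monocyte and macrophage markers summed to 184 to 245 CPM, and endothelial markers, some of which HSCs share, to 310 to 350 CPM. The neutrophil markers moved with the letter, as given below.

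All 3 NR4A receptor genes were higher in the B than in the A library of each genotype. *Nr4a1*, which encodes NUR77, stood at 5.79 and 8.56 log2 CPM in the *Id2*+/+ A and B libraries and at 4.50 and 8.27 in the *Id2*Δ/Δ A and B libraries. Both B libraries lay far above both A libraries, by 6.82-fold in *Id2*+/+ and 13.6-fold in *Id2*Δ/Δ cells. *Nr4a2*, which encodes NURR1, stood at 5.64 and 6.57 in *Id2*+/+ A and B and at 4.77 and 6.61 in *Id2*Δ/Δ A and B. Its B libraries were again the 2 highest, and the B over A fold was 1.91 in *Id2*+/+ and 3.57 in *Id2*Δ/Δ HSCs. *Nr4a3*, which encodes NOR1, had 4 and 31 reads in *Id2*+/+ A and B, and 0 and 37 reads in *Id2*Δ/Δ A and B. That is a ratio of 7.03 in *Id2*+/+ cells (95% exact counting interval 2.49 to 27.4) and at least 11.6-fold in *Id2*Δ/Δ cells. The B libraries of the genotypes were close to each other, with an *Id2*Δ/Δ over *Id2*+/+ ratio of 0.993 (0.599 to 1.65). The 3 genes lie, on GRCm38 in GENCODE M21, on chromosome 15 from 101254269 to 101274795 (*Nr4a1*, ENSMUSG00000023034.6), on chromosome 2 from 57106830 to 57124003 (*Nr4a2*, ENSMUSG00000026826.13) and on chromosome 4 from 48045153 to 48086447 (*Nr4a3*, ENSMUSG00000028341.9).

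The promoters of the NR4A genes are shown because these 3 genes were high and low in the same libraries, and because they share a feature that the choice of genes did not use. RefSeq promoters on GRCm38.p6 were matched by symbol for 7 of the 10 genes, all but *Klf10*, *Egr1* and *Egr3*. The 250 bases before each start were searched on both strands for the core of the cyclic AMP response element (CRE), TGACG, which CREB-family factors bind. Each of the 3 NR4A promoters held 4 matches. Of 32851 promoters searched in the same way, 17.8% held at least 1 match and 0.137% held 4 or more. The limit of 4 is the count found in these 3 promoters, and other motifs, given below, were searched too. The share is therefore a description. The capitals mark the core, which reads CGTCA where it lies on the other strand.
Nr4a1 promoter, chr15:101266596-101266845, plus strand: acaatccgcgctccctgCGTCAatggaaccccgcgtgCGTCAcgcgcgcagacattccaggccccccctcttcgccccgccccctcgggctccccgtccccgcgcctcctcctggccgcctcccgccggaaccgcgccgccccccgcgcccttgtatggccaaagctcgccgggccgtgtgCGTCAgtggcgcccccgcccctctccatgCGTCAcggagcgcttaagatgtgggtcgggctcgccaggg
Nr4a2 promoter, chr2:57124004-57124253, minus strand: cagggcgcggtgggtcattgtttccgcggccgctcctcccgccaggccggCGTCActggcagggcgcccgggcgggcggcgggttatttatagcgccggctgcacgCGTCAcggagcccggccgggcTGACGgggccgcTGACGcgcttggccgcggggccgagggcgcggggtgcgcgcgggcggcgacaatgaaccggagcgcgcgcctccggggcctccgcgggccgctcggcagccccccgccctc
In *Nr4a3* the matches begin at positions -231, -213, -205 and -147, counted from the RefSeq start. The first annotated exon of *Nr4a3* begins after 98 bases of this window, so the match at -147 lies inside the gene model. The whole *Nr4a1* window lies inside its gene model, which begins at 101254269. In *Nr4a1* they begin at -233, -213, -69 and -40, and in *Nr4a2* at -200, -144, -123 and -111. No promoter of the 7 held the full palindrome TGACGTCA, which 1.55% of all promoters hold, or an NR4A response element, AAAGGTCA, which 1.34% hold. A match is a description of letters and not a bound site.

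**Figure D1:**
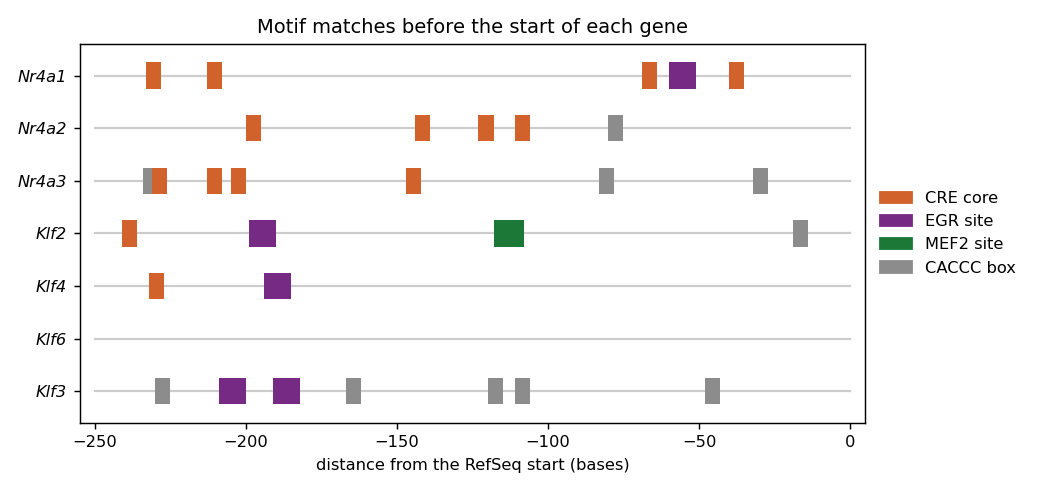
Motif matches in the 250 bases before the RefSeq start of the 7 genes with a promoter in the table, with distance from the start in bases on the x axis and 1 line per gene. The 3 NR4A promoters each carry 4 CRE cores, while *Klf2* and *Klf4* carry 1 and *Klf3* and *Klf6* carry 0.

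The same motif count was looked up in other genes. Of 36 other tested genes with 4 or more CRE cores, 0 were at least 2-fold higher in B in both genotypes, and the median B minus A difference was 0.05 on the log2 scale. Among 7176 other tested genes with none, 51 (0.711%) were past that fold. At so low a share, 36 genes are too few for a count of 0 to tell whether genes with and without the motif differ.

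*Klf2*, *Klf6* and *Klf4* were the KLF genes that followed the letter. *Klf2*, at 5.27 and 7.30 log2 CPM in *Id2*+/+ A and B and 5.25 and 8.56 in *Id2*Δ/Δ A and B, was nearly equal in the A libraries of both genotypes and highest in *Id2*Δ/Δ B. The B over A fold was 4.08 in *Id2*+/+ and 9.88 in *Id2*Δ/Δ cells. *Klf6*, a widely expressed early response factor, was the most abundant of the 10 per length. It stood at 7.84 and 9.74 in *Id2*+/+ A and B and at 7.83 and 10.21 in *Id2*Δ/Δ A and B, which is 3.73-fold and 5.19-fold. *Klf4*, known as a pluripotency and monocyte factor, stood at 3.45 and 4.64 in *Id2*+/+ A and B and at 4.0 and 5.34 in *Id2*Δ/Δ A and B. Its folds were 2.27 and 2.54, and it is the KLF gene whose *Id2*Δ/Δ library was the higher of the pair within each letter.

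The *Klf2* promoter is shown for its match to the MEF2 site, which 0.508% of all promoters hold. MEF2 factors, acting downstream of the kinase ERK5, are known to drive *Klf2*. The capitals mark, from 5′ to 3′, a match to the EGR site GCGTGGGCG or GCGGGGGCG (3.06% of all promoters) and the MEF2 site, and the run ends where the first annotated exon begins.
Klf2 promoter, chr8:72318812-72319032, plus strand: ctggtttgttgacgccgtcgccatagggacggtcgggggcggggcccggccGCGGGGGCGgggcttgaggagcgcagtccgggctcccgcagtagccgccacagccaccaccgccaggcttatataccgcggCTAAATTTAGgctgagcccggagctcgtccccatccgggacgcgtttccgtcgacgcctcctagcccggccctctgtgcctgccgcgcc
An EGR site also lay in the promoters of *Klf3*, *Klf4* and *Nr4a1*. None of the 7 promoters held a CArG box, the binding site of serum response factor, which 1.47% of all promoters hold. CACCC, the KLF motif, lay in the windows of *Klf2*, *Klf3*, *Nr4a2* and *Nr4a3*, and 52% of all promoters hold it.

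*Klf10* and *Klf3* did not share the letter pattern. *Klf10*, a factor induced early by TGF-beta, stood at 7.49 and 7.56 log2 CPM in *Id2*+/+ A and B and at 7.21 and 7.59 in *Id2*Δ/Δ A and B. Its B libraries were the higher ones, by 1.05-fold and 1.30-fold only. *Klf3*, a repressor of the family, stood at 6.57 and 6.13 in *Id2*+/+ A and B and at 6.42 in both *Id2*Δ/Δ libraries, so it was lower in B in one genotype and equal in the other. *Klf3* is also the only one of the 10 whose gene model overlaps others in GENCODE M21 (*Gm20033* and *C230096K16Rik*), and strand use in counting is not given in the sources used here. The KLF genes lie on chromosome 8 from 72319033 to 72321656 (*Klf2*, ENSMUSG00000055148.7), chromosome 5 from 64803388 to 64832901 (*Klf3*, ENSMUSG00000029178.14), chromosome 4 from 55527143 to 55532466 (*Klf4*, ENSMUSG00000003032.8), chromosome 13 from 5861482 to 5870394 (*Klf6*, ENSMUSG00000000078.6) and chromosome 15 from 38291463 to 38300706 (*Klf10*, ENSMUSG00000037465.9).

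*Egr1* (ENSMUSG00000038418.7), an immediate-early zinc-finger factor, stood at 7.15 and 8.37 log2 CPM in *Id2*+/+ A and B and at 7.11 and 9.19 in *Id2*Δ/Δ A and B. The A libraries of the genotypes were nearly equal, and the B over A fold was 2.34 in *Id2*+/+ and 4.24 in *Id2*Δ/Δ cells. *Egr3* (ENSMUSG00000033730.3), on chromosome 14 from 70077203 to 70082614, was close to the floor, with 6 and 15 reads in *Id2*+/+ A and B and 4 and 7 reads in *Id2*Δ/Δ A and B. The B over A ratios of *Egr3* were 2.27 (95% exact counting interval 0.831 to 7.13) and 1.65 (0.420 to 7.69), so a letter difference of *Egr3* was not detectable at this depth.

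**Figure D2:**
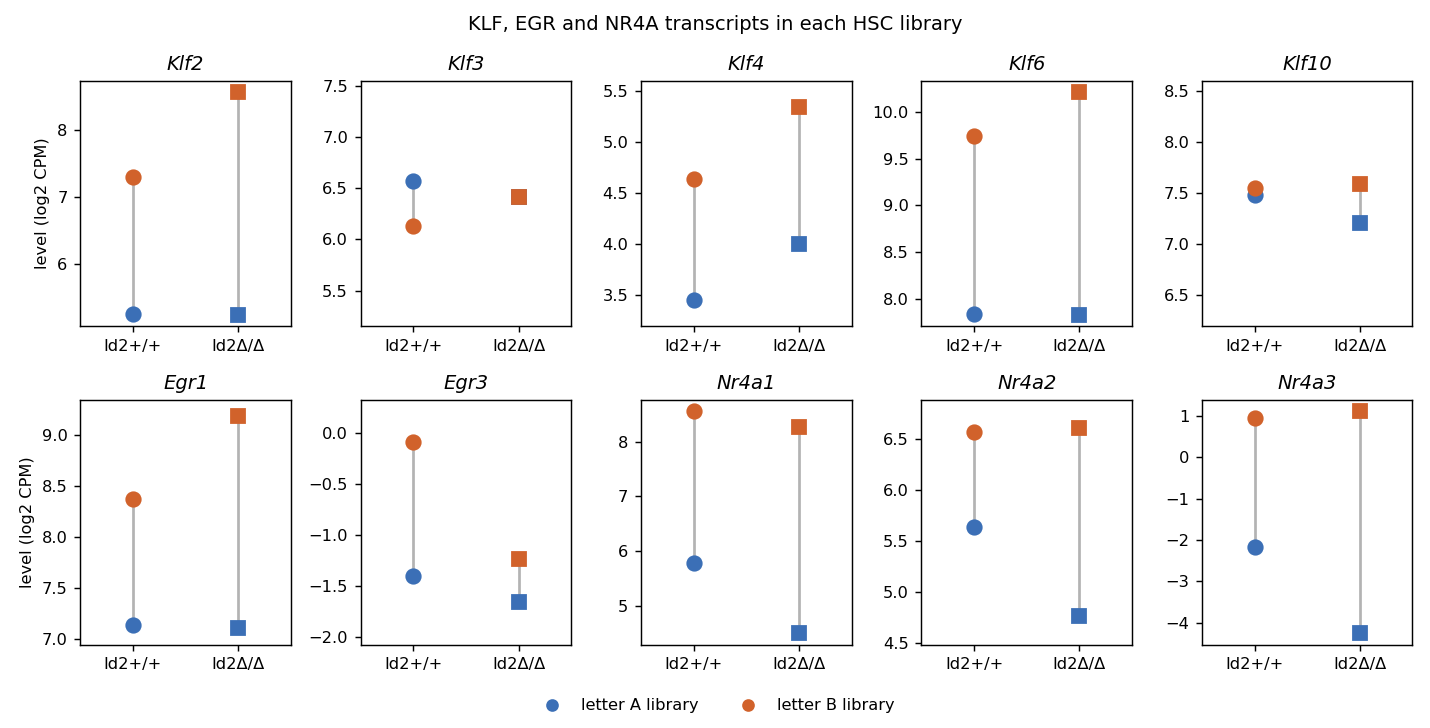
Level of each factor in log2 CPM on the y axis, with a separate scale per panel, by genotype on the x axis, with circles for *Id2*+/+, squares for *Id2*Δ/Δ, and color for the lettered library. Lines join the A and B library of a genotype, and the B library is the higher one in both genotypes for 9 of the 10 genes, *Klf3* being the exception. *Egr3* is close to the floor, at 4 to 15 reads per library.

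Over all 10 genes, the median B minus A difference was 1.27 on the log2 scale in *Id2*+/+ and 1.96 in *Id2*Δ/Δ cells, and putting *Nr4a3* at its bound left the second median at 1.96. In 6 of the 10 genes B was at least 2-fold above A in both genotypes, where 0.887% of all tested genes were, and in 7 it was at least 1.5-fold above, where 2.38% were. In 0 of the 10 was B at least 1.5-fold below A in both genotypes, where 2.04% were. In 8 of the 9 tested factors both B libraries lay above both A libraries, where 16.1% of all tested genes did. *Egr3*, under the filter, did so too, though only by 7 reads in *Id2*Δ/Δ B against 6 in *Id2*+/+ A. The genes were chosen with this contrast known, so these counts describe the choice, and no test was made of them. With 1 library per letter and genotype, the letter difference has a repeat only in the other genotype.

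**Figure D3:**
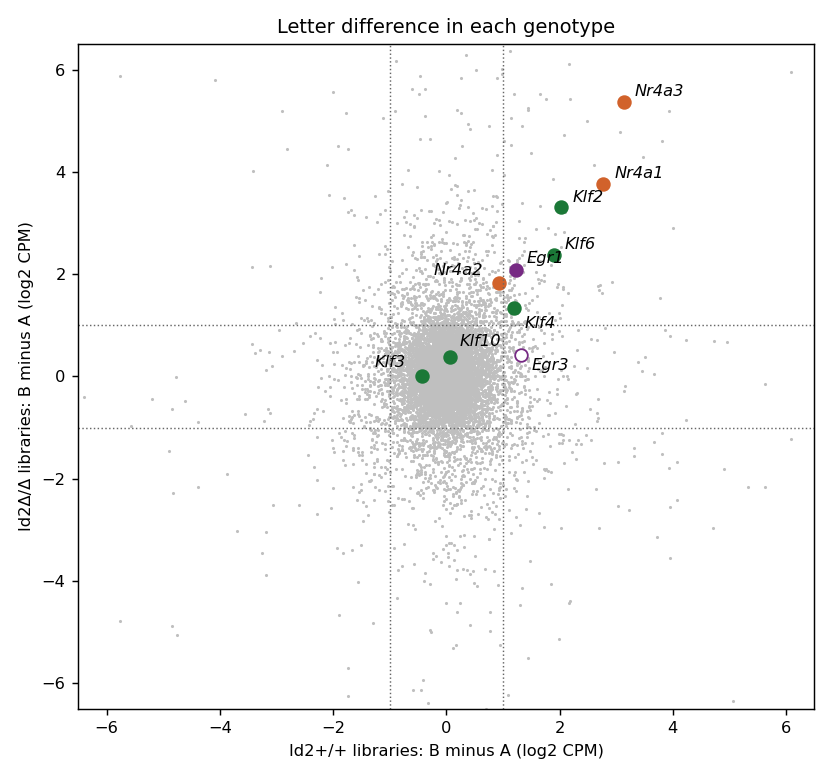
B minus A difference in log2 CPM in the *Id2*+/+ libraries (x axis) and in the *Id2*Δ/Δ libraries (y axis), with 15886 other tested genes in grey, of which 15 lie beyond the axes, KLF genes in green, EGR genes in purple and NR4A genes in orange. Dotted lines mark 2-fold, the open circle is *Egr3*, which was under the filter, and 6 of the 10 genes lie in the upper right field.

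Levels per length, as the mean CPM per kilobase of annotated exon over the 4 libraries, ran in the order *Klf6* (142), *Klf2* (82.6), *Egr1* (66.7), *Nr4a1* (54.5), *Klf10* (42.4), *Nr4a2* (16.6), *Klf4* (7.57), *Klf3* (7.48), *Nr4a3* (0.183) and *Egr3* (0.117). Neighbors in this order overlapped in their range over the libraries, with the exceptions of *Klf10* against *Nr4a2* and *Klf3* against *Nr4a3*. The order changed with the letter. *Klf10*, at 35.5 and 42.9 CPM per kilobase in the A libraries, was second only to *Klf6* there, whereas in the B libraries, at 45.1 and 46.1, it came after *Klf6*, *Klf2*, *Egr1* and *Nr4a1*.

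Whether loss of *Id2* altered these transcripts was asked with limma across all 15895 tested genes, with genotype as the only term, two-sided p-values and Benjamini-Hochberg adjustment. Of the 9 tested factors 0 had an adjusted p-value under 0.05, where 0% of all tested genes had one, and 0 had an unadjusted p-value under 0.05, where 742 genes (4.67%) did. The estimates of 5 factors were above 0 and those of 4, *Klf10* and the 3 NR4A genes, below 0. The log2 fold change from *Id2*+/+ to *Id2*Δ/Δ cells was 0.62 (SE 1.02, 95% confidence interval -1.76 to 3.0, adjusted p = 0.940, limma) for *Klf2*. *Klf4* had 0.63 (SE 0.51), *Klf6* 0.23 (SE 0.80) and *Egr1* 0.39 (SE 0.64), with adjusted p-values of 0.910, 0.969 and 0.940 from limma. *Nr4a1* had -0.79 (SE 1.22, 95% confidence interval -3.65 to 2.06, adjusted p = 0.938, limma). *Nr4a2* had -0.41 (SE 0.55) and *Nr4a3* -0.95 (SE 1.94), with adjusted p-values of 0.931 and 0.948 from limma, and the value of *Nr4a3* depends on the level given to a library without reads. The closest estimates were those of *Klf3*, 0.07 (SE 0.17, 95% confidence interval -0.34 to 0.47), and of *Klf10*, -0.12 (SE 0.15, interval -0.47 to 0.23), the pair with the smallest letter differences. Leaving out a library turned the sign of all 9 estimates, and their median of 0.07 became -0.96 without *Id2*Δ/Δ B and 1.30 without *Id2*Δ/Δ A. In none of the 10 did the genotypes' libraries separate, where 34.8% of tested genes do in one direction or the other, and *Egr3* had means 0.70 lower on the log2 scale in *Id2*Δ/Δ cells.

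The genotype difference was not the same within A and within B. Within letter A, *Id2*Δ/Δ was below *Id2*+/+ for 9 of the 10 genes, all but *Klf4*. The median difference was -0.20 on the log2 scale, against 0.007 over all tested genes. Of the 9, *Klf2*, *Klf6* and *Egr1* were near 0, with *Klf6* at -0.007. The counting intervals of the ratio on reads included 1 for *Nr4a3* (0 to 1.21) and *Egr3* (0.111 to 2.25), so no direction is shown for them within A. Within letter B *Id2*Δ/Δ was above for 8 of the 10 on the deposited values, all but *Nr4a1* and *Egr3*. The median was 0.23, against 0.02 over all tested genes, and *Klf10* was near 0 at 0.03. One of the 8 is *Nr4a3*, at 0.17, whose ratio on reads was 0.993, so no difference in either direction is shown for it within B. *Klf2* was -0.02 within A and 1.26 within B, and *Egr1* was -0.04 and 0.82. *Nr4a1* was -1.29 and -0.30, and *Nr4a2* was -0.87 and 0.04. *Klf4* was higher within both letters, by 0.55 and 0.71. The B minus A difference was larger in *Id2*Δ/Δ than in *Id2*+/+ cells for 9 of the 10 genes, *Egr3* being the exception, where 50.2% of all tested genes had the larger one in *Id2*Δ/Δ cells. This was not particular to the 10. Of 37 other immediate-early genes tested, 28 had the larger one in *Id2*Δ/Δ cells. Their median genotype difference was -0.23 within A and 0.14 within B. With 1 library in each cell of this design, the difference between the letters has no test. All of these counts rest on the same 4 libraries. Of the lists of cell type markers, none had a gene called by genotype in limma. HSC markers summed to 5485 and 5608 CPM in *Id2*+/+ and to 3992 and 4623 CPM in *Id2*Δ/Δ libraries. Of the 11, 3 were higher (*Slamf1*, *Hoxb5* and *Ly6a*) and 8 lower. An unadjusted limma p-value under 0.05 was found for 4, where 4.67% of all tested genes had one. The summed neutrophil markers were lower in *Id2*Δ/Δ cells within each letter, though 2 of the 7 tested, *Mpo* and *Elane*, were higher in the mean. Megakaryocyte markers summed to 454 and 510 CPM in *Id2*+/+ A and B and to 513 and 598 CPM in *Id2*Δ/Δ A and B, with 5 of 6 higher. Of these, 2, *Pf4* and *Gp1bb*, were at an unadjusted limma p-value under 0.05, against the same 4.67%. Their part in the genotype differences of the response factors was not tested.

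**Figure D4:**
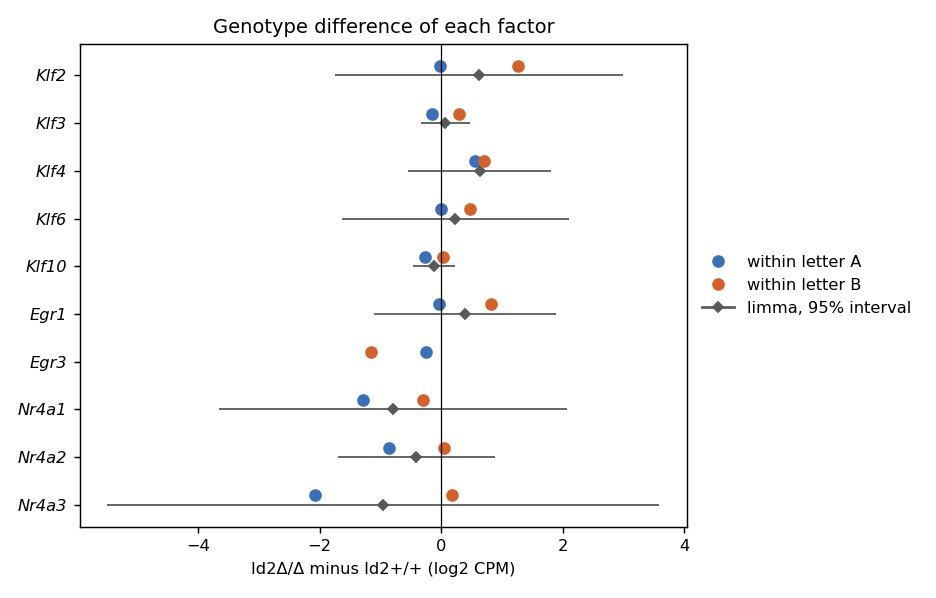
Difference between *Id2*Δ/Δ and *Id2*+/+ in log2 CPM (x axis) for each factor, within letter A and within letter B as circles and from limma over all 4 libraries as a diamond with its 95% confidence interval. All 9 intervals include 0, and *Egr3*, under the filter, has no interval.

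Of 16 other KLF and SP genes listed, 13 were tested, of which 0 were past 2-fold between letters in both genotypes. Over all tested genes 0.887% were up past that fold and 0.749% down, so 13 genes are too few for this count to tell. The median B minus A difference of the 13 was 0.06 against -0.01 over all tested genes. The abundant *Sp3*, *Sp1* and *Klf13* had genotype log2 fold changes of -0.11, 0.16 and -0.07, and 4 of the 13 were higher and 9 lower in *Id2*Δ/Δ cells, with 0 called. *Klf15*, named after its values were seen and under the filter, had 12 and 13 reads in the *Id2*+/+ and 0 in both *Id2*Δ/Δ libraries, at least 5.10-fold lower against the same floor. Of the EGR partners, the corepressor genes *Nab1* and *Nab2* had genotype log2 fold changes of 0.08 and -0.09. *Egr2* and *Egr4* were under the filter and, like *Nr4a3*, at 0 reads in *Id2*Δ/Δ A. *Egr2* had 19 and 13 reads in *Id2*+/+ A and B and 24 in *Id2*Δ/Δ B, and *Egr4* had 10, 10 and 23. Unlike *Nr4a3*, neither was higher in B than in A in *Id2*+/+ cells. A count of 0 in *Id2*Δ/Δ A was not particular to these families. The erythroid marker *Hba-a1* had 31, 5, 0 and 32 reads in *Id2*+/+ A and B and *Id2*Δ/Δ A and B. The monocyte and macrophage marker *Ly86* had 8, 2, 0 and 21, while *Jund* and *C1qa*, whose counted reads were low in every library, had 6 and 9 reads in *Id2*Δ/Δ A. The RXR partner genes *Rxra* and *Rxrb* had genotype log2 fold changes of -0.50 (SE 0.36) and 0.11 (SE 0.12), each uncalled.

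Genes for the kinases and factors that act on these promoters differed little between letters as a group. All 21 were tested, with a median B minus A difference of 0.05. Only 1 was up past 2-fold in both genotypes, where 0.887% of all tested genes were. It is *Crem*, named for this value, at 2.20-fold and 2.02-fold. *Crem* encodes CREB-family activators and repressors that bind the CRE. By genotype, 8 were higher, 13 lower and 0 called. *Mef2c*, the most abundant of them, had means of 9.11 ± 0.12 log2 CPM in the controls and 8.82 ± 0.10 after *Id2* loss (SD, n = 2 each), a log2 fold change of -0.29 (SE 0.11, adjusted p = 0.910, limma). *Mapk3*, which encodes the kinase ERK1, had means of 6.0 ± 0.03 and 6.31 ± 0.01 log2 CPM (SD, n = 2 each), with a log2 fold change of 0.31 (SE 0.13, adjusted p = 0.910, limma). *Mef2d* had a log2 fold change of -0.10 (SE 0.14).

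Other immediate-early genes shared the letter pattern in part. Of 38 listed, 37 were tested, and in 10 of these B was at least 2-fold above A in both genotypes. In 1, *Arc*, named for this value, it was at least 2-fold below. Among those 10 genes is *Cyr61*, which passed the filter only through *Id2*Δ/Δ B. It had 7 and 21 reads in *Id2*+/+ A and B and 0 and 87 in *Id2*Δ/Δ A and B. The background is 0.887% up and 0.749% down, and this list too was written with results of these libraries known. The median B minus A difference was 0.66 on the log2 scale, against -0.01 over all tested genes. *Jun* and *Fos*, which encode the AP-1 subunits, were 2.23-fold and 2.03-fold higher in B in *Id2*+/+ and 3.30-fold and 2.28-fold in *Id2*Δ/Δ cells. *Dusp1*, a phosphatase that turns off MAP kinases, was 1.83-fold and 2.81-fold higher. By genotype 15 were higher, 22 lower and 0 called, with a median log2 fold change of -0.01. *Dusp6*, an ERK phosphatase and a transcriptional target of ERK signaling, was 0.36 higher (SE 0.12, adjusted p = 0.910, limma), and *Gadd45a* was at -0.46 (SE 0.26).

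Transcripts known as KLF2 targets in lymphocytes and endothelium did not follow *Klf2* as a group. Of 5, all tested, 0 were past 2-fold between letters in both genotypes. Only 0.887% of all tested genes were up past that fold and 0.749% down, so 5 genes are too few for this count to tell. Their median B minus A difference was -0.49 on the log2 scale, with 2 of the 5 higher in B in the mean. *S1pr1*, a receptor that guides cell exit from tissues, was 1.56-fold and 1.69-fold higher in B, while *Itgb7*, which encodes an integrin subunit, was at 0.703-fold and 0.720-fold. By genotype 2 were higher and 3 lower, with 0 called, and *Nos3* had a log2 fold change of 0.65 (SE 0.71).

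Neutrophil markers went the other way between letters. The summed level of 8 such genes was 143 and 108 CPM in the *Id2*+/+ A and *Id2*Δ/Δ A libraries and 52.6 and 25.7 CPM in the B libraries. In all 7 tested, both B libraries lay below both A libraries, where 16.8% of tested genes do. The 11 HSC markers had a median B minus A difference of 0.04. Reads were also more numerous in the B library of each genotype. The part of neutrophil transcripts or of depth in the letter difference of the response factors was not tested.

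**Figure D5:**
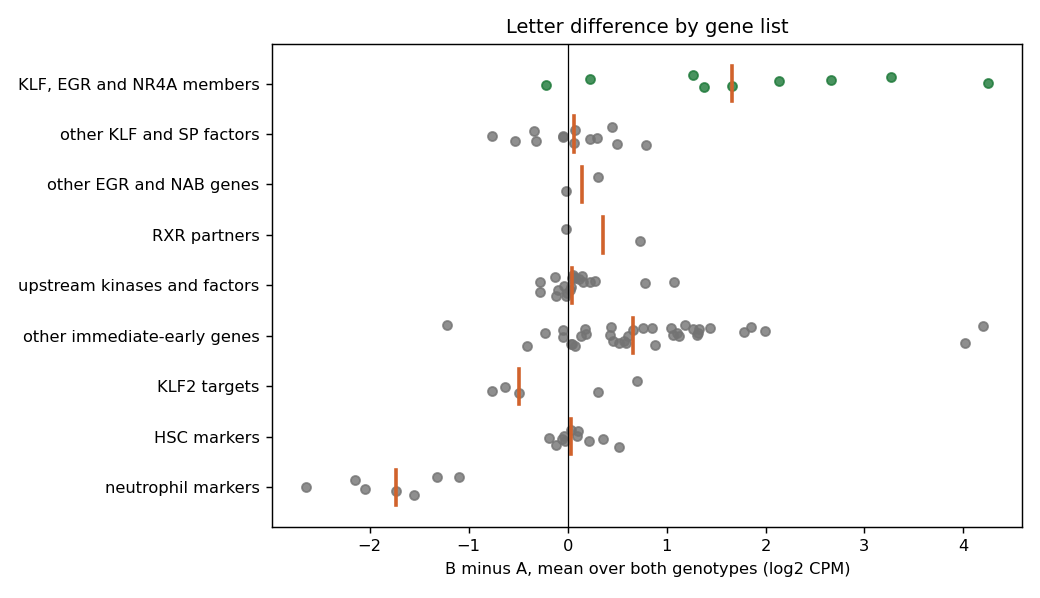
B minus A difference averaged over both genotypes, in log2 CPM (x axis), with 1 point per tested gene and the median of each list as an orange bar. The response factors have a median of 1.66 over 9 tested genes the neutrophil markers one of -1.74 over 7, and the upstream kinases and factors one of 0.05 over 21.

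The genes whose profile over the 4 libraries was closest to the median profile of the 9 tested factors were *Socs3*, *Btg2*, *Nfkbiz*, *Jun* and *Junos*, out of 7370 other genes that averaged 32 CPM or more. Closeness is the root mean square difference of the 4 log2 values, each less its gene's own mean. It was 0.12 for *Socs3*, a feedback inhibitor of cytokine signaling, 0.20 for the antiproliferative gene *Btg2*, 0.21 for *Nfkbiz*, 0.27 for *Jun* and 0.28 for *Junos*, which is antisense to *Jun*. The median over the 7370 genes was 1.00. A gene with no change over the libraries would score 0.995, so that median describes genes that change little. At this abundance, a limit used here after the values were seen, 15 of 7377 genes were at least 2-fold higher in B in both genotypes and 0 were at least 2-fold lower. Of those 15, 4 were *Nr4a1*, *Klf2*, *Klf6* and *Egr1*, and 8 were in the list of other immediate-early genes.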

How the data were processed

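RNA-Seq was read in 4 libraries of sorted HSCs, 2 per genotype, all used. The authors deposited log2 CPM values, and the unit was read from the file, since columns taken back from log2 have sums of 999980 to 999996. Quantile normalization, which removes any change shared by all genes, is visible in the sorted columns, 88.4% of whose ranks lie within 0.1. The others are low values, which do not share 1 distribution. The submitters' processing notes list CASAVA 1.8.4, Trimmomatic 0.30, TopHat2 2.0.8, RSEM and STAR and the builds mm9 and NCBIM37, without roles. The file holds identifiers and no coordinates, so positions, exon lengths and overlaps were taken from GENCODE M21 (GRCm38), in which 99.7% of the identifiers were found.

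Reads were recovered below 32 CPM by ranking the distinct values of a library, which step from 1 read to the next, and this was tested on simulated data. No count model was run. Genes averaging 1 CPM or more were fitted with limma 3.58.1 in R 4.3.3 (lmFit, eBayes with intensity trend), without a pseudocount, and called at an adjusted p-value under 0.05. For a single value, 2 libraries against 2 allow an exact permutation p of 0.333 at the lowest (two-sided). Letter differences are descriptions. The 10 genes and all lists were chosen with earlier results of these data known. All 10 genes are named, with the 3 most abundant genes of each pathway list, up to 2 with the largest genotype difference among those whose genotypes do not overlap, and the 5 closest in profile, except that some genes the rule names are not reported here. Alternatives varied the pseudocount, filter, scaling, trend, threshold, replicate term and libraries. Those on unadjusted p-values alone and on genes of at least 32 CPM were chosen after seeing the data.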

Additional observations from a re-analysis of the deposited data

Results flagged for a closer look

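For 7 of the 10 factors the genotype difference had opposite signs within letter A and within letter B on the deposited values. The difference within B less that within A was 1.28 on the log2 scale for *Klf2*, 0.44 for *Klf3*, 0.48 for *Klf6*, 0.31 for *Klf10*, 0.86 for *Egr1*, 0.91 for *Nr4a2* and 2.25 for *Nr4a3*, which rests on 0 and 4 reads in the A libraries. For *Nr4a3* the ratio on reads within B was 0.993, so that opposite signs are not shown for it. In *Klf2*, *Klf6* and *Egr1* the difference within A was near 0, and in *Klf10* and *Nr4a2* that within B was (0.03 and 0.04). With 1 library per genotype and letter these differences were not tested.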

How the results depend on the processing

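No factor was called by genotype under any alternative, and the lowest adjusted p-value over 90 such values was 0.279 (limma). The number of genes called, 0, became 1 with the replicate block, 409 at an unadjusted p-value under 0.05 with at least 1.5-fold, and 742 at that p-value alone. The gene called under the block is *C130089K02Rik*, which is none of the 10. The labels do not say that a letter marks a shared experiment, and same-letter libraries had a correlation of deviations of 0.0592 across tested genes. Under the replicate block the values stayed as they were, and 4 of the 9 factors had an unadjusted limma p-value under 0.05, against 0 without it. They were *Nr4a1* (lower, 0.00204) and *Klf4*, *Klf2* and *Egr1* (higher, 0.0201, 0.0216 and 0.0459), with adjusted values of 0.791 to 0.841. The factors were chosen with the letter difference known, and the block takes that difference out of the spread. The share of all tested genes under 0.05 in the block fit was not counted, so the 4 are a description. The genotype values of the factors depend on which library is in the fit, since leaving one out sets unequal mixes of letters against each other. With each library left out in turn, the median over the 9 tested factors, 0.07, ranged from -0.96 without *Id2*Δ/Δ B to 1.30 without *Id2*Δ/Δ A. The lowest and highest values in those fits were -1.03 and 2.27 for *Klf2*, -0.15 and 0.28 for *Klf3*, -0.043 and 1.30 for *Klf4*, -0.96 and 1.42 for *Klf6*, -0.31 and 0.069 for *Klf10*, -0.65 and 1.43 for *Egr1*, -2.67 and 1.09 for *Nr4a1*, -1.33 and 0.51 for *Nr4a2*, and -3.64 and 1.74 for *Nr4a3*. No other alternative changed the sign of a factor. Without the filter, *Egr3* enters and the median is -0.03. The 6 factors past 2-fold between letters stayed 6 after median-ratio rescaling, and with log2(CPM + 1) the median letter difference went from 1.52 to 1.39. *Nr4a3* and *Egr3* are limited by depth.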
